A study of Mus musculus with 6 samples.

Results

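Amino acid transporters of the plasma membrane were followed by RNA sequencing in the insulin-secreting MIN6 line, grown from a mouse insulinoma, after chronic epinephrine. The members were 10 genes chosen by symbol (Slc7a11, Slc3a2, Slc7a5, Slc7a3, Slc7a1, Slc1a5, Slc1a4, Slc6a9, Slc38a2 and Slc36a4), and each had 1 row among the 22298 genes of the deposited table. The control group (n = 3) and the chronic epinephrine group (n = 3) were both MIN6 cells with no genetic change named in the labels. The methods give epinephrine at 100 nM and passages from 32 to 40, and the exposure is described as 3 days followed by 2 days of withdrawal. The day on which RNA was taken is not given in the sources used here. MIN6 is a single tumour line, which limits it as a model of the beta cell in an islet. The labels do not say how the 3 samples of a group were obtained, and the methods describe the replicates of the study in general as biological and as independent samples. P-values measure the spread between these 3 samples.

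Amino acid carriers move amino acids across the plasma membrane and so set the supply for protein synthesis, for glutathione and for the sensing of nutrients by mTORC1. Several of them work as heteromers, in which the heavy chain Slc3a2 (4F2hc, CD98) carries a light chain of the Slc7 family such as Slc7a5 (LAT1) or Slc7a11 (xCT) to the cell surface. Many carrier genes are known targets of ATF4, the transcription factor of the integrated stress response, which is made when the translation factor eIF2 is phosphorylated and which binds C/EBP-ATF composite elements in DNA. Beta cells place a high demand on protein synthesis because they make insulin, and arginine and leucine are known to stimulate its secretion.

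The promoters of Slc7a11 and Slc1a4 are printed first because they were the ones among the members that held the core of the composite element, written TGATGNAA. Windows from 250 bases before to 50 bases after a start site were taken from RefSeq on GRCm38.p6 and searched on both strands. The table held 10 such windows for 7 of the members, and Slc7a5, Slc7a3 and Slc1a5 had no entry. The core was found in 3.97% of all 32851 windows in the table and in 2 of the 10 member windows, which belonged to 2 of the 7 members. In the 250 bases upstream of Slc7a11 (chr3:50443614-50443863, minus strand), printed 5′ to 3′ along the gene with the matches in capitals, 2 matches faced each other with 11 bases between them.
Slc7a11: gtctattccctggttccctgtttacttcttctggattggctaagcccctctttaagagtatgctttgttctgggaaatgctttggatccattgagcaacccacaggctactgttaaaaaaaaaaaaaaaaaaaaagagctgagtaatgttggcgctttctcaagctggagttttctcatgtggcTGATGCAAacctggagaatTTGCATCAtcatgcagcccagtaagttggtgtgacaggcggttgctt
Slc1a4: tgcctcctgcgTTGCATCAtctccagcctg
The first Slc7a11 match began 66 bases upstream of the start site on the strand of the gene, and the second began 47 bases upstream on the other strand. A pair or more of matches occurred in 23 of all windows (0.07%). The 30 bases of Slc1a4 (chr11:20332699-20332728, minus strand) hold 1 match, on the other strand, that begins 4 bases upstream of the start site and runs across it. The core of the antioxidant response element, TGACNNNGC, through which NRF2 acts, was found in 12.4% of all windows and in 4 of the 10 member windows. These 4 belonged to 3 members, Slc7a1, Slc6a9 (at 2 of its 3 start sites) and Slc38a2. This core was not among the letters of the Slc7a11 window, and sequence outside the windows was not searched. These matches describe the sequence and do not show binding.

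**Figure D1:**
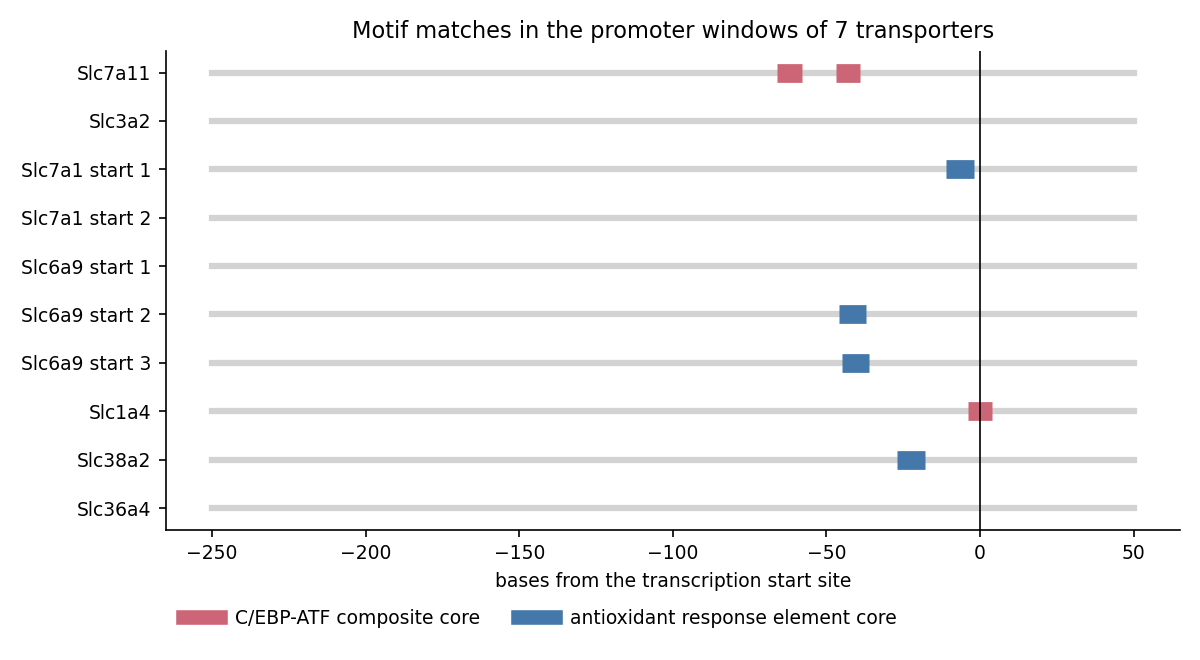
Matches to the cores of the C/EBP-ATF composite element (red) and the antioxidant response element (blue) in the RefSeq promoter windows of 7 transporters, by distance in bases from the transcription start site (0). Each grey bar is 1 window of 300 bases. Slc7a11 holds 2 composite cores close to its start site, Slc1a4 holds 1 at the start site, and Slc3a2 and Slc36a4 hold neither motif.

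Total expected counts per library lay between 15017065 and 18127171, and a gene with 0 counts could have held up to 3 counts, at most 0.200 CPM (counts scaled to the library total), by counting error alone. Control 1 stood apart from the other libraries. Its correlation with the nearest other library across tested genes was 0.979, where each of the other 5 libraries had a neighbour at 0.992 or above. The 13 beta cell markers were all detected, with summed levels of 51738 to 68948 CPM in control and 62139 to 64271 after epinephrine, and 2 of them fell, Ins1 and Slc2a2. Among 7 markers of other islet cells, Gcg, which encodes glucagon, rose from 175, 195 and 212 CPM in control to 377, 396 and 409 CPM and made up most of the summed level of 177 to 214 CPM in control and 379 to 412 CPM after epinephrine. Of 20 hepatocyte markers, 19 were in the table, and those other than Ttr, which beta cells also express, summed to 49.98, 132 and 271 CPM in controls 1, 2 and 3 and to 37.1 to 42.6 after epinephrine, with 1 of them, Serpina1c, called lower. The 8 skeletal muscle markers summed to 2.07 to 3.77 CPM in control and to 106, 77.9 and 1.65 CPM in chronic epinephrine 1, 2 and 3. Markers of exocrine pancreas, kidney tubule and leukocytes summed to at most 4.33 CPM in any library and those of fibroblasts to at most 24.0 CPM, and 5 of the 9 exocrine and 4 of the 8 kidney markers were at 0 in every library. Cd68, a macrophage marker, was called higher, with 0.712, 0.343 and 0.563 CPM in control and 3.38, 2.13 and 2.98 CPM after epinephrine. It was the 1 leukocyte marker of 8 that was called. Csf1r overlapped between the groups, with 1.88, 0.457 and 0.813 CPM in control and 0.593, 0.953 and 0.926 CPM after epinephrine. The remaining leukocyte markers lay at 0.563 CPM or below in every library. The part of these other RNAs in the results for the transporters was not tested.

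Of the 10 transporters, 4 rose after chronic epinephrine and none fell, at an adjusted p (FDR) under 0.05 in the quasi-likelihood test of edgeR. Over the 12747 genes tested, 2.63% were called in either direction, 2.02% as higher and 0.612% as lower. DESeq2 called 6 of the 10, all higher, against 2.56% of the 17363 genes it fitted, a total that includes genes given no adjusted p. With the replicate number as a block, edgeR called 3 against 1.18%. With edgeR on counts and no block, Slc7a11 rose most, by about 5.42-fold, followed by Slc7a3 with 4.01-fold. Slc6a9 came next with 2.05-fold and then Slc1a5 with 1.503-fold. The first 3 of these were also past the 2-fold mark, a call made as higher for 0.635% of genes tested. In 9 of the 10 the fitted log2 fold change (LFC, epinephrine over control) was above 0, and its median was 0.57 over the members and -0.0023 over all genes tested. The groups did not overlap, with epinephrine higher, for 8 of the 10, against 14.3% of all genes tested, and for none with epinephrine lower, a separation found in 1655 of the genes tested. An unadjusted p under 0.05 was reached by 8 of the 10 and by 17.1% of all genes tested. With groups apart in 8 members, the exact permutation test over samples, two-sided, had p = 0.1 for each, the smallest that 3 samples against 3 allow. Of the other tested genes with an Slc symbol, 222 in number, 11 were called higher and 4 lower, with a median LFC of 0.02.

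**Figure D2:**
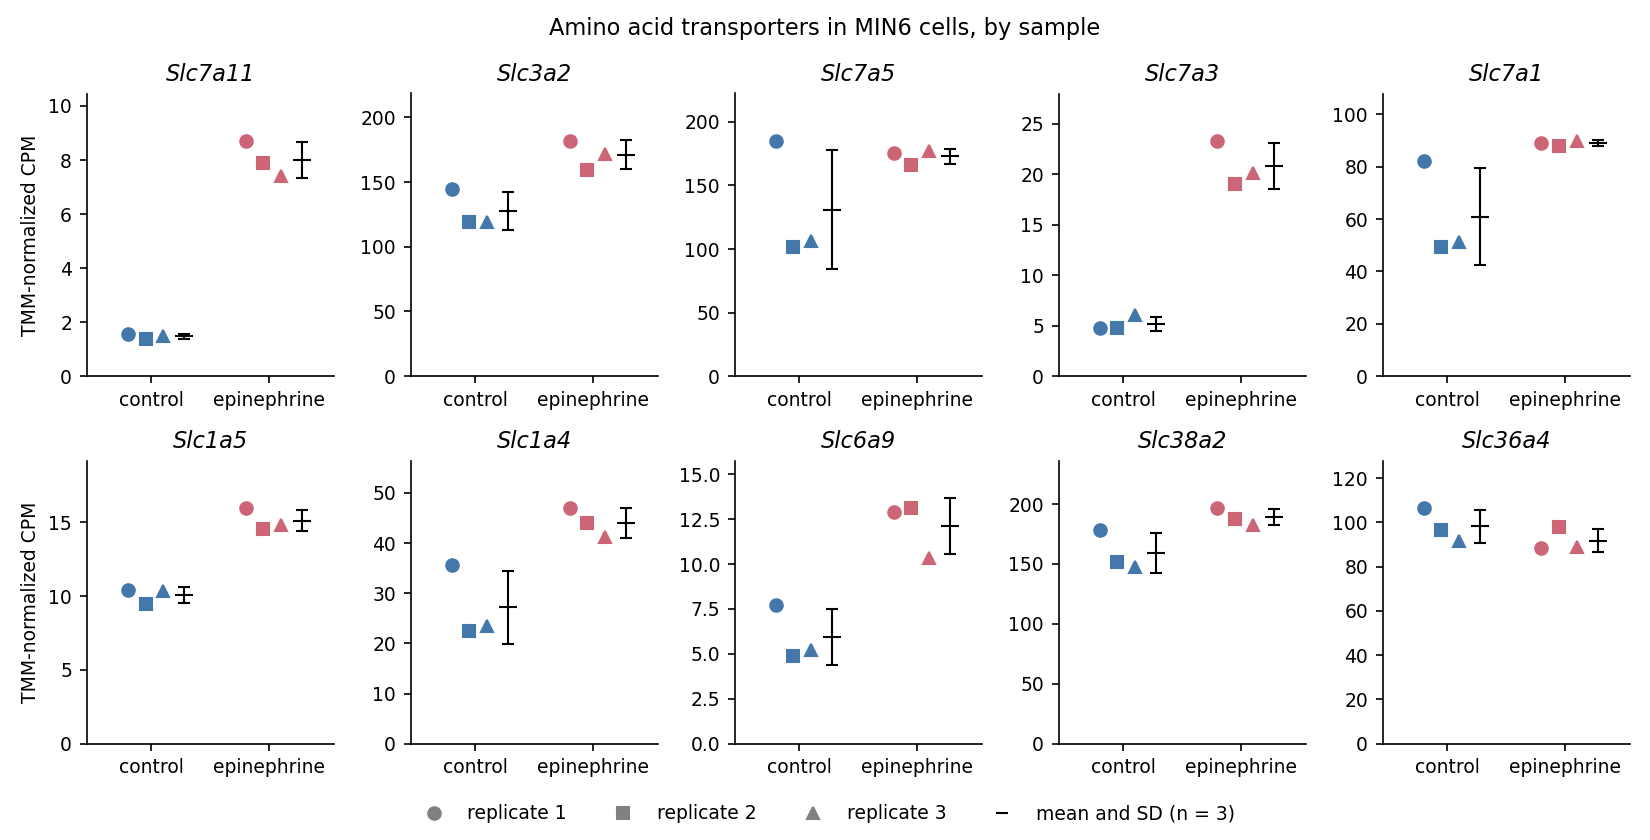
TMM-normalized CPM of the 10 transporters in each of the 6 samples (vertical axis, from 0), with control in blue, chronic epinephrine in red, symbols for the replicate numbers and black bars for the mean and SD (n = 3). All epinephrine samples lie above all controls in 8 panels, and in those of Slc7a5 and Slc36a4 the groups overlap. Control 1 (blue circle) lies near the epinephrine samples for Slc7a5 and Slc7a1 and with the other controls for Slc7a11 and Slc7a3.

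Slc7a11 (ENSMUSG00000027737, chromosome 3 from 49892526 to 50443614 on GRCm38) encodes xCT, the light chain that takes up cystine in exchange for glutamate and feeds glutathione synthesis. Its expected counts were 24 in each of the 3 controls and 147, 141 and 112 in chronic epinephrine 1, 2 and 3. As TMM-normalized CPM these were 1.55, 1.37 and 1.502 in control and 8.72, 7.90 and 7.40 after epinephrine. The lowest epinephrine sample was well above the highest control, and the controls lay close together. The LFC was 2.44 (SE 0.16, 95% interval 2.06 to 2.81, FDR 0.000519 by edgeR with Benjamini-Hochberg adjustment). This placed Slc7a11 at rank 9 among all tested genes by LFC. Chronic epinephrine 3, with muscle markers at the level of the controls, had 7.40 CPM of Slc7a11. Control 1, with the lowest sum of hepatocyte markers among the controls, had 1.55 CPM. These are 1 library of each group, and the part of the other RNAs in this change was not tested. Slc7a11 stayed the rarest of the members per length (FPKM, fragments scaled to transcript length and library total), at 0.160 ± 0.0100 FPKM in control and 0.860 ± 0.0721 FPKM after epinephrine (SD, n = 3). Only 0.659% of tested genes had a lower mean FPKM in control. Of the 50-base stretches of its transcripts, 0.618% also occur in other genes.

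Slc3a2 (ENSMUSG00000010095, chromosome 19 from 8706882 to 8723369), the shared heavy chain, was the most abundant member per length. Its CPM were 145, 119 and 119 in controls 1, 2 and 3, and 182, 160 and 171 after epinephrine. Every epinephrine sample was above every control, and the LFC of 0.42 (SE 0.11, 95% interval 0.18 to 0.66) did not pass the test (FDR 0.0820 by edgeR). DESeq2 called it, at 0.41 with an adjusted p of 0.0175. Stretches of 50 bases that also occur in other genes made up 3.42% of its transcripts.

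Slc7a5 (ENSMUSG00000040010, chromosome 8 from 121881150 to 121907694) encodes LAT1, the light chain that exchanges large neutral amino acids such as leucine and thereby feeds mTORC1. Its CPM were 185, 102 and 106 in controls 1, 2 and 3, and 175, 166 and 177 after epinephrine. Control 1 was higher than any epinephrine sample, while controls 2 and 3 were far below all of them. The LFC was 0.40 (SE 0.21, 95% interval -0.08 to 0.88, FDR 0.377 by edgeR), with p = 0.4 in the exact two-sided permutation test. The difference was within the spread between the controls.

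The light chains were set beside the heavy chain per length, in FPKM. Slc7a11 amounted to 0.00215, 0.00228 and 0.00248 of the Slc3a2 level in controls 1, 2 and 3, and to 0.00937, 0.00965 and 0.00862 after epinephrine. The log2 ratio was 2.00 higher after epinephrine (exact two-sided permutation p = 0.1, adjusted over the 2 ratios 0.2, with all 3 epinephrine samples above all controls), so the ratio moved apart by more than the spread within the groups, with SDs of 0.10 and 0.08. The ratio of Slc7a5 to Slc3a2 was 0.686, 0.440 and 0.466 in control and 0.494, 0.535 and 0.538 after epinephrine. Its log2 difference was 0.01 (exact permutation p = 1), with an SD of 0.35 among the controls and 0.07 after epinephrine. This value rested on control 1, the highest of the 6 ratios, since controls 2 and 3 were below all epinephrine samples. The difference was 0.21 without control 1 and -0.11 without control 2. Slc7a5 supplied 48.8% to 53.8% of the summed light chain FPKM in control and 58.8% to 60.7% after epinephrine. Slc7a8 (LAT2), another exchanger of neutral amino acids, supplied 31.1% to 34.6% in control and 23.7% to 25.1% after epinephrine. Its own level overlapped between the groups, at 34.8, 19.5 and 19.1 FPKM in control and 20.8, 18.4 and 20.6 FPKM after epinephrine (LFC -0.26, FDR 0.570 by edgeR, and 0.06 without control 1). The share of Slc7a11 was 0.169% to 0.260% in control and 0.971% to 1.12% after epinephrine, so the groups were apart while it stayed a small part of the sum. The summed light chains were at 1.27, 0.890 and 0.955 of the heavy chain in control and at 0.839, 0.895 and 0.888 after epinephrine. Control 1 was the library in which the light chains exceeded the heavy chain.

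**Figure D3:**
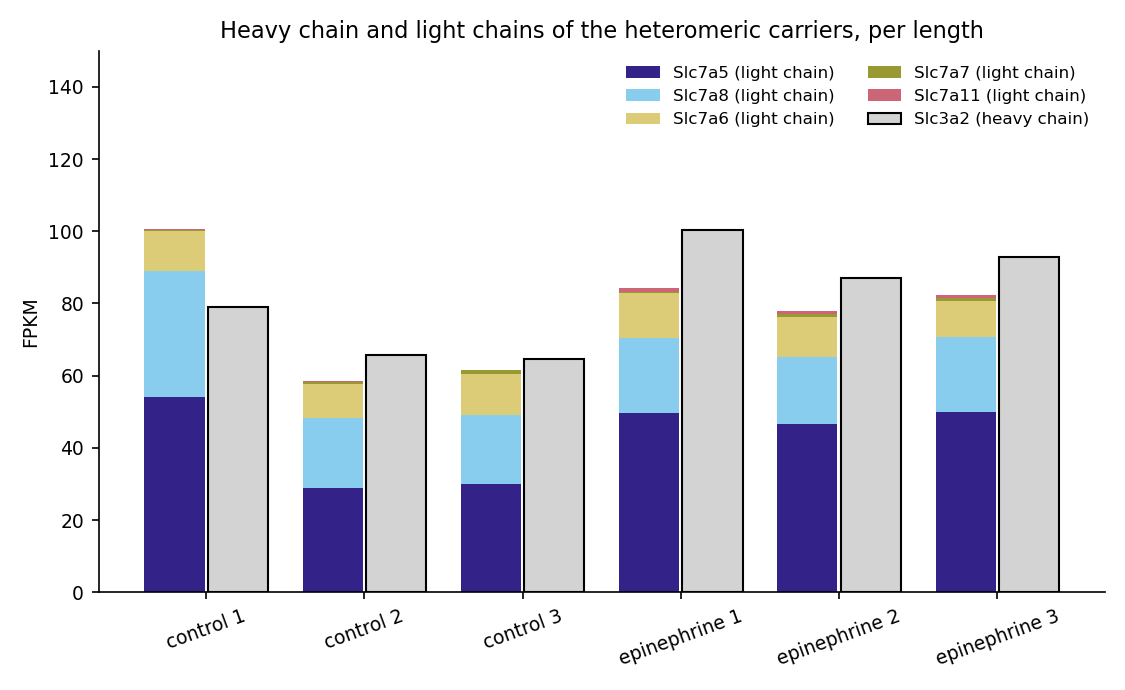
FPKM of the Slc7 light chains (stacked bars) beside the heavy chain Slc3a2 (grey bars) in each of the 6 samples, from 0. The light chain sum is 101 FPKM in control 1, 58.5 and 61.6 in controls 2 and 3 and 77.9 to 84.3 after epinephrine. Slc7a5 and Slc7a8 make up most of it, and Slc7a11 is the thin red cap.

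Slc7a3 and Slc7a1 encode CAT3 and CAT1, carriers of the cationic amino acids arginine, lysine and ornithine that need no heavy chain. Slc7a3 (ENSMUSG00000031297, chromosome X from 101079210 to 101086020) had CPM of 4.73, 4.80 and 6.01 in control and 23.3, 19.0 and 20.1 after epinephrine. The groups were far apart, and control 1 was the lowest of the controls. The LFC was 2.01 (SE 0.14, 95% interval 1.68 to 2.33, FDR 0.000575 by edgeR), at rank 17 of all tested genes by LFC, and none of its 50-base stretches occurs in another gene. Slc7a1 (ENSMUSG00000041313, chromosome 5 from 148327410 to 148399904) had CPM of 82.3, 49.3 and 51.1 in controls 1, 2 and 3, and 89.2, 87.7 and 90.0 after epinephrine. The epinephrine samples lay within a narrow band just above control 1 and far above controls 2 and 3. The LFC of 0.55 (SE 0.18, 95% interval 0.13 to 0.96) did not pass the test (FDR 0.177 by edgeR).

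The third cationic carrier, Slc7a2 (CAT2), is no member and was by far the most abundant of the 3 per length. It had 114, 99.7 and 85.9 FPKM in control and 74.9, 79.3 and 75.2 FPKM after epinephrine. All its epinephrine samples were below all controls, with an LFC of -0.36 on counts (SE 0.11, FDR 0.139 by edgeR, 0.0483 by DESeq2). The share of Slc7a3 in the summed FPKM of the 3 carriers was 1.70% to 2.79% in control and 8.33% to 10.6% after epinephrine, and that of Slc7a2 was 89.1% to 91.7% and 76.7% to 79.6%. The sum itself was 128, 109 and 96.2 FPKM in control and 97.6, 99.6 and 96.3 after epinephrine. The higher level of Slc7a3 thus stood beside a sum that was not above that of the controls.

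Slc1a5 and Slc1a4 encode ASCT2 and ASCT1, exchangers of small neutral amino acids, of which ASCT2 is the main glutamine exchanger and ASCT1 also takes up serine. Slc1a5 (ENSMUSG00000001918, chromosome 7 from 16781340 to 16798274) had CPM of 10.4, 9.43 and 10.3 in control and 15.95, 14.6 and 14.8 after epinephrine. The samples of each group lay close together and the groups were apart, with an LFC of 0.59 (SE 0.11, 95% interval 0.35 to 0.83, FDR 0.0271 by edgeR). With the replicate number as a block the FDR was 0.0840. Slc1a4 (ENSMUSG00000020142, chromosome 11 from 20302180 to 20332713), the gene with the composite core at its start site, had CPM of 35.6, 22.5 and 23.5 in controls 1, 2 and 3, and 47.0, 44.0 and 41.1 after epinephrine. All epinephrine samples were above control 1, the highest control. The LFC of 0.70 (SE 0.17, 95% interval 0.31 to 1.09) was larger than that of Slc1a5 and missed the threshold (FDR 0.0795 by edgeR), with a wider spread among its controls. DESeq2 called Slc1a4, at 0.69 with an adjusted p of 0.0126. The difference between the changes of these genes was not tested.

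Slc6a9 (ENSMUSG00000028542, chromosome 4 from 117834506 to 117875198) encodes GlyT1, the sodium-coupled glycine transporter, and glycine is a building block of glutathione. Its CPM were 7.70, 4.86 and 5.19 in controls 1, 2 and 3, and 12.9, 13.1 and 10.3 after epinephrine. The groups did not overlap, and the LFC was 1.04 (SE 0.19, 95% interval 0.60 to 1.48, FDR 0.0298 by edgeR). Per length the groups were closer together, with 3.60, 2.77 and 1.63 FPKM in control and 3.97, 4.18 and 4.56 FPKM after epinephrine. Counts and FPKM of this gene implied transcript lengths from 1751 to 3218 bases across the libraries, while those of Slc7a5 implied 3516.5 to 3517.4, so the length behind the FPKM of Slc6a9 differed between libraries. With limma on log2(FPKM + 1) the change was 0.55 and was not called (adjusted p = 0.214). Exons of Slc6a9 overlap Ccdc24 and B4galt2 on the other strand, and whether counting used strand is not given in the sources used here. Ccdc24 had an LFC of -0.21 and B4galt2 one of -0.19, with FDR values of 0.797 and 0.675 by edgeR.

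Slc38a2 (ENSMUSG00000022462, chromosome 15 from 96687392 to 96699730) encodes SNAT2, the sodium-coupled carrier of small neutral amino acids that cells make more of when amino acids run short. Its CPM were 178, 152 and 147 in controls 1, 2 and 3, and 197, 188 and 183 after epinephrine. The groups were separate by a small margin, with an LFC of 0.25 (SE 0.10, 95% interval 0.03 to 0.47) that did not pass the test (FDR 0.231 by edgeR). Slc36a4 (ENSMUSG00000043885, chromosome 9 from 15709738 to 15743361) encodes PAT4, a carrier of proline and tryptophan. It was the one member with a fitted change below 0, with CPM of 106, 96.5 and 91.7 in control and 88.4, 97.8 and 89.0 after epinephrine. The groups overlapped, and the 95% interval of the LFC of -0.10 ran from -0.31 to 0.11 (FDR 0.630 by edgeR). A change of 2-fold in either direction lay outside this interval.

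Compared per length, the controls ordered the members from Slc3a2 (69.8 ± 8.01 FPKM, SD, n = 3) through Slc7a5 (37.7 ± 14.3), Slc38a2 (34.4 ± 4.25), Slc36a4 (17.4 ± 1.41), Slc7a1 (8.77 ± 2.64), Slc1a4 (7.04 ± 1.98), Slc1a5 (3.67 ± 0.234), Slc6a9 (2.67 ± 0.989) and Slc7a3 (2.33 ± 0.304) to Slc7a11. Neighbours whose control samples overlapped were Slc7a5 with Slc38a2, Slc7a1 with Slc1a4, Slc1a5 with Slc6a9, and Slc6a9 with Slc7a3. After epinephrine no neighbours of this order overlapped. Slc7a3 (9.10 ± 1.09 FPKM) had then passed both Slc6a9 (4.24 ± 0.299 FPKM) and Slc1a5 (5.41 ± 0.289 FPKM). The largest folds were thus measured in members of low level, and Slc7a11 rose without leaving the last place.

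The members differed in where control 1 lay. In Slc7a5, Slc7a1, Slc1a4 and Slc6a9 control 1 was 1.78, 1.64, 1.55 and 1.53 times the mean of controls 2 and 3. A ratio of 1.5 or more was reached by 7.87% of all tested genes. In Slc7a11, Slc7a3 and Slc1a5 the same ratio was 1.08, 0.874 and 1.06, and in Slc3a2, Slc38a2 and Slc36a4 it was 1.21, 1.19 and 1.13. Among the other carriers, 4 of 19 reached it, Slc1a1 at 1.89, Slc7a8 at 1.75, with Slc43a2 and Slc6a6 both at 1.57 times. The transcript of Atf4 did not share this pattern, with 163, 198 and 208 CPM in controls 1, 2 and 3. Whether the level of these carriers in control 1 is a property of that culture or of its library was not tested.

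Without control 1, 9 of the 10 transporters passed an adjusted p of 0.05 in edgeR, all of them higher, while 12.1% of the 12966 genes tested were then called higher. The exception was Slc36a4, with an LFC of -0.04 (FDR 0.725). This fit set the epinephrine samples against controls 2 and 3 alone, so its FDR values leave out the spread that control 1 added. Hepatocyte markers other than Ttr summed to 132 and 271 CPM in these controls, 49.98 CPM in control 1 and 37.1 to 42.6 CPM after epinephrine. The part of these RNAs in this fit was not tested. The changes became 0.74 for Slc7a5 (FDR 7.49e-11), 0.83 for Slc7a1 (FDR 4.35e-11), 0.94 for Slc1a4 (FDR 8.01e-10), 0.52 for Slc3a2 (FDR 9.97e-08) and 0.34 for Slc38a2 (FDR 2.19e-05). Those of Slc7a11 and Slc7a3 stayed near their values from all samples, at 2.48 and 1.95. Leaving out any other library kept Slc7a11 and Slc7a3 past the threshold in every fit and lost Slc6a9 and Slc1a5 each time. Of the tested genes, 0.683% were called higher without control 2, 1.17% without control 3, and 0.341%, 0.357% and 0.555% without chronic epinephrine 1, 2 and 3.

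**Figure D4:**
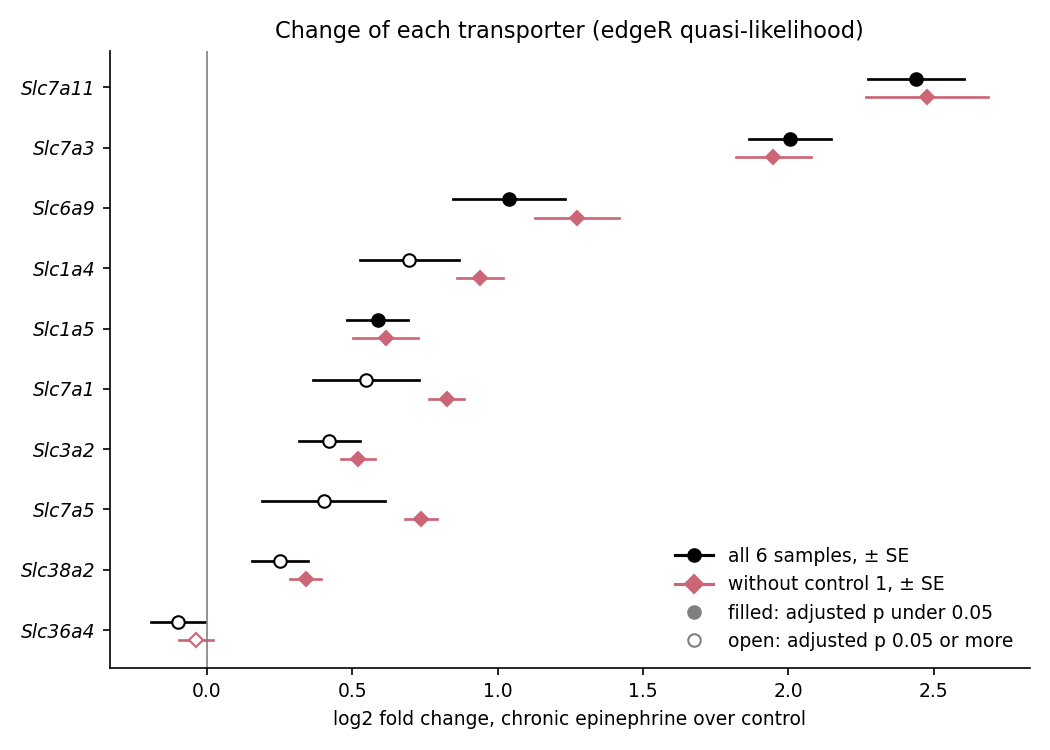
log2 fold change of each transporter, chronic epinephrine over control, with all 6 samples (black circles) and without control 1 (red diamonds), each ± SE from edgeR. Filled symbols mark an adjusted p under 0.05. The fit without control 1 holds controls 2 and 3 as its only controls. Slc7a11 and Slc7a3 are filled and nearly the same in both fits, while Slc7a5 moves from 0.40 to 0.74 and Slc7a1 from 0.55 to 0.83.

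Other plasma membrane amino acid carriers were listed for comparison as 34 genes, of which 19 were expressed enough to be tested. None passed an adjusted p of 0.05 in edgeR, beside 2.63% of all genes, and 3 had an unadjusted p under 0.05, beside 17.1%. DESeq2 called 1 of the 27 it fitted, Slc7a2, and 4.20% of all genes it fitted, where both totals include genes given no adjusted p. These counts do not set the other carriers apart from genes in general. The median LFC of the 19 was -0.10, and 7 lay above 0, while without control 1 the median was -0.0042 and 10 of 20 lay above 0. Groups stood apart in either direction for 5 of the 19, near the 27.3% of all genes tested. The most abundant per length were Slc38a5, Slc38a4, Slc7a2, Slc6a6 and Slc43a2. Slc38a5, a glutamine carrier, had 324, 212 and 234 CPM in control and 256, 236 and 263 CPM after epinephrine, so the groups overlapped (LFC -0.03, FDR 0.945 by edgeR). Without control 1, its highest sample, the direction turned and it was called higher (LFC 0.17, FDR 0.0262). Slc38a4, of the same family as Slc38a2, had 406, 440 and 425 CPM in control and 398, 389 and 400 CPM after epinephrine, an LFC of -0.10 (FDR 0.570). Slc6a6, the taurine transporter, and Slc43a2, a carrier of large neutral amino acids, had LFCs of -0.38 and -0.40 (FDR 0.307 and 0.291), and without control 1 these were -0.13 and -0.15. Without control 1, 4 of the other plasma membrane carriers then tested (20) were called higher (Slc7a4, Slc38a5, Slc6a15 and Slc36a1) and 1 lower (Slc7a2), 25% in all, near the 21.6% of all genes called in that fit. Carriers of lysosomes and other inner membranes numbered 8 tested genes, with a median LFC of 0.11. None passed in edgeR or DESeq2 and none had an unadjusted p under 0.05, beside the 2.63%, 4.20% and 17.1% of all genes, and without control 1 edgeR called 2 of the 8 higher, Slc38a7 and Slc38a10, beside 12.1%.

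The regulators and other targets of the same stress response were then read beside the carriers. Of 20 regulators of the integrated stress response, all tested, 8 rose and none fell, where 2.02% of all genes tested were called higher. These were Trib3, Atf4, Ppp1r15a, Nupr1, Ddit3, Cebpb, Atf5 and Atf3, with LFCs from 0.59 (Atf5) to 2.24 (Nupr1). Atf4 had 349, 340 and 349 CPM in chronic epinephrine 1, 2 and 3, an LFC of 0.87 (SE 0.10, FDR 0.00581 by edgeR). Among the regulators 12 were called without control 1, where 12.1% of all genes were called higher. Trib3 was the 1 regulator called when chronic epinephrine 1 was left out (0.341% of all genes called higher) and when chronic epinephrine 2 was (0.357%). None of the 4 eIF2 kinases, which start the response, passed the test with all samples, and Eif2ak3 passed without control 1. Eif2ak3 (PERK) had an LFC of 0.22 (FDR 0.303) and Eif2ak4 (GCN2), which senses uncharged tRNA, one of -0.07 (FDR 0.775). Of 27 tested ATF4 targets that are no carriers, 17 rose, none fell and all 27 had a fitted change above 0, with a median LFC of 0.69, beside the same 2.02% of all genes. The number called was 25 without control 1, 5 without chronic epinephrine 1, 8 without chronic epinephrine 2 and 8 without chronic epinephrine 3, in fits that called 12.1%, 0.341%, 0.357% and 0.555% of all genes higher. Those with the smallest p were Aldh1l2, Chac1, Pycr1, Eif4ebp1, Phgdh, Psat1, Asns, Mthfd2, Psph, Bcat1, Shmt2 and Gpt2, enzymes of serine, folate, proline, asparagine, glutathione and transaminase reactions apart from Eif4ebp1, which restrains translation. Their LFCs lay between 0.69 for Asns and 1.62 for Eif4ebp1. The change of Slc7a11 (2.44) and that of Slc7a3 (2.01) were above this range, and those of the other 8 members were 1.04 or lower. The range is that of the 12 with the smallest p, and the changes of all 27 tested targets ran from 0.03 to 1.62.

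Around the use of cystine, 3 of 13 tested genes rose, beside 2.02% of all genes called higher. These were Slc7a11 itself, Chac1, which breaks down glutathione, and Cth, which makes cysteine from cystathionine. Without the transporters the count was 2 of 11, and both genes are also counted among the 17 ATF4 targets above. Cth rose from 4.16 ± 0.884 to 9.57 ± 0.759 CPM (SD, n = 3, FDR 0.0105 by edgeR), and it was not called without control 2 or when any 1 epinephrine sample was left out. Of 16 NRF2 targets, a list that also holds Slc7a11, Hmox1 was the other gene that rose, with an LFC of 0.98 (SE 0.13, FDR 0.00854), and the median of the list was 0.01. The groups were apart for 3 of the 16 with epinephrine higher and for 4 with epinephrine lower, beside 27.3% of all genes tested in either direction. Among the 4 were Nqo1, a quinone reductase (LFC -0.71, FDR 0.0749 by edgeR), and Gstm1, a glutathione transferase (LFC -0.41, FDR 0.125). DESeq2 called 3 of this list higher and 2 lower, Nqo1 and Gstm1, and without control 1 edgeR called 4 higher and the same 2 lower. Over all genes fitted, DESeq2 called 4.20% and edgeR without control 1 called 21.6%. Hmox1 was not called when any 1 epinephrine sample was left out. Of 22 tested genes of amino acid sensing by mTORC1, Sesn1, a sestrin, was the 1 that passed and was lower, with an LFC of -0.49 and an FDR of 0.0344 by edgeR. The list median was 0.07, and 1 of 22 stood beside 2.63% of all genes tested. Sesn1 was not called with the replicate block or when any sample other than control 1 was left out.

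**Figure D5:**
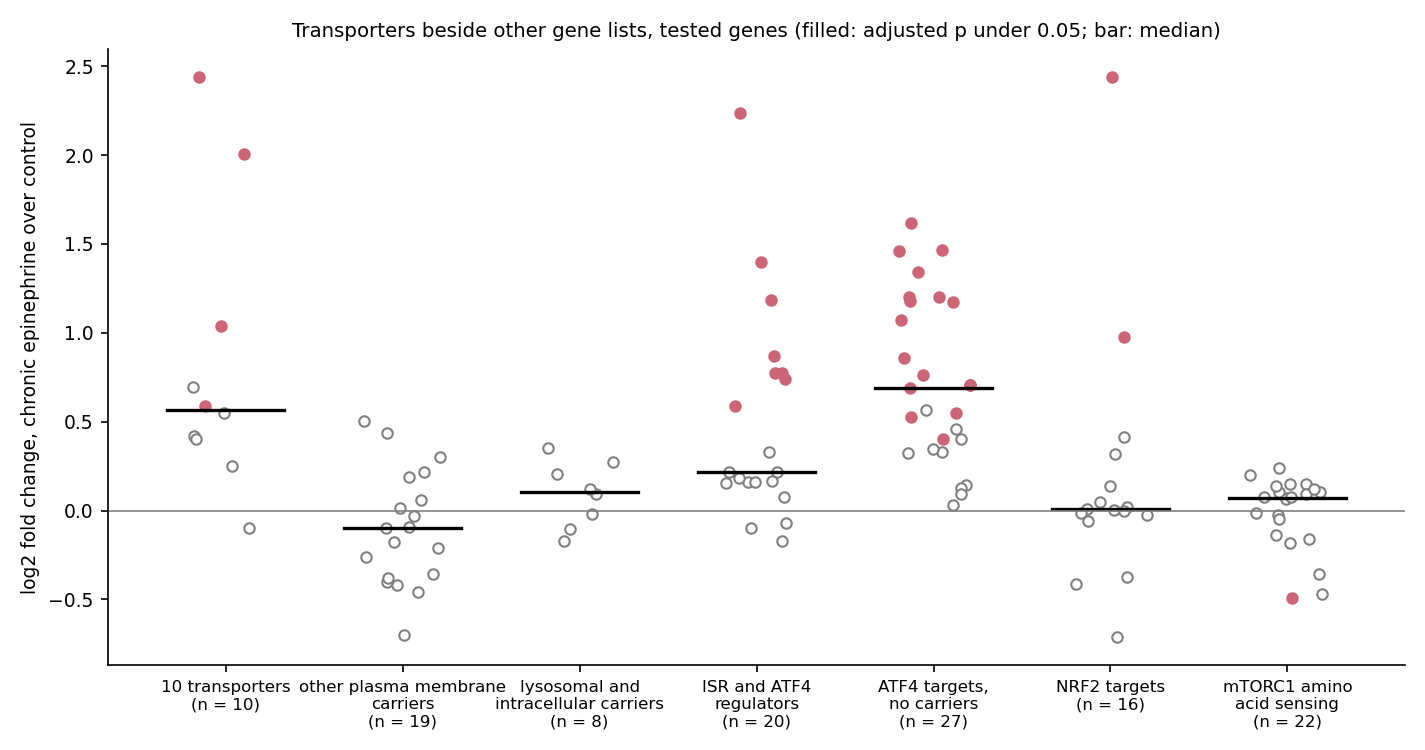
log2 fold changes, chronic epinephrine over control, of the tested genes of each list (vertical axis), with 1 circle per gene, filled red at an adjusted p under 0.05 by edgeR, and a black bar at the median. The medians are 0.57 for the 10 transporters, -0.10 for the other plasma membrane carriers and 0.69 for ATF4 targets that are no carriers. Slc7a11 appears both among the transporters and among the NRF2 targets.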

How the data were processed

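RNA of 6 MIN6 samples was sequenced, and the deposited table gives expected counts, unscaled between samples, and FPKM values that the authors scaled to transcript length and library total. The submitters' processing notes name GRCm38. The aligner and the counting tool are not given in the sources used here. Expected counts (8.34% not whole) were rounded, filtered by filterByExpr, given TMM factors and fitted in edgeR 4.0.16 (R 4.3.3) by quasi-likelihood, with all samples and no covariate. P-values were adjusted by Benjamini-Hochberg over the 12747 genes (FDR, threshold 0.05). SE is the log2 fold change divided by the square root of F. CPM are TMM-normalized. The code was tested on simulated data. Alternatives were 3 other scalings, DESeq2 1.42.0, limma 3.58.1 on log2 FPKM with 1 or 0.1 added, 2 other filters, replicate number as a block and each sample left out. Positions and 50-base windows are from GENCODE M21, promoters from RefSeq. The members and lists were chosen with earlier results of these data known. Named were all members, list genes past the threshold (at most 12 a list, by smallest p) and the 5 most abundant other carriers. Genes of other lists named beyond this were chosen after their values were seen. They were Eif2ak3, Eif2ak4, Slc7a8, Slc1a1, Slc7a4, Slc6a15, Slc36a1, Slc38a7, Slc38a10, Nqo1, Gstm1, Ins1, Slc2a2, Gcg, Ttr, Serpina1c, Cd68 and Csf1r. A planned comparison of proteins was not made, since protein sequences were not used here.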

Additional observations from a re-analysis of the deposited data

How the results depend on the processing

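All 10 transporters kept the direction of their change in all 15 alternatives, with 9 above 0 and Slc36a4 below. Slc7a11 and Slc7a3 passed an adjusted p of 0.05 in each of them. The number of transporters called was 4, and with limma on FPKM with 1 or 0.1 added it was 2, where Slc6a9 (0.55 and 0.71) and Slc1a5 (0.46 and 0.55) were not called. DESeq2 added Slc3a2 (0.41) and Slc1a4 (0.69), and called 729 genes in all, 1 of the other plasma membrane carriers, 5 NRF2 targets and 2 genes of mTORC1 sensing. With the replicate block, Slc1a5 (0.59) was not called, and the calls were 178 over all genes and 0 in mTORC1 sensing. Nothing says that the replicate numbers pair the samples, and deviations of same-numbered samples correlated at 0.05, 0.07 and -0.05. With a sample left out, the number of transporters called ranged from 2 to 9 and that over all genes from 47 to 2798. The log2 fold changes ranged from 0.24 to 0.74 for Slc7a5, from 0.37 to 0.52 for Slc3a2, from 0.41 to 0.83 for Slc7a1, from 0.57 to 0.94 for Slc1a4, from 0.20 to 0.34 for Slc38a2, from 0.90 to 1.27 for Slc6a9 and from 0.54 to 0.61 for Slc1a5. The numbers called ranged from 0 to 5 for other plasma membrane carriers, 1 to 2 for light chains, 0 to 2 for inner membrane carriers, 1 to 12 for regulators of the stress response, 5 to 25 for other ATF4 targets, 1 to 6 for NRF2 targets, 2 to 4 for cystine use and 0 to 3 for mTORC1 sensing. The highest of these values came without control 1, and the cause was not tested.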
